A study of Mus musculus with 6 samples.

Results

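Cd163l1/Il17a T cells are T cells of mouse liver that carry transcripts of Cd163l1, a scavenger receptor gene also known as Scart1, or of the cytokine gene Il17a. They were proposed as IL-17-type gamma-delta T cells. A cell was taken where it held at least 1 unique molecular identifier (UMI, the tag that counts single RNA molecules) of Cd3d, Cd3e or Cd3g and at least 1 UMI of Cd163l1 or Il17a. It was left out with any UMI of Cd8a, Cd8b1 or Foxp3, or with more than 1 UMI of the B cell genes Cd79a and Ms4a1. The members were thus chosen by their UMI counts of these genes, which are not tested below. This gate took 890 cells, out of 16835 T cells and 42682 kept barcodes (of 44656 deposited). T cells here are kept barcodes that met the Cd3 and B cell limits, and the 15945 outside the gate, which include the CD8 and Foxp3 cells, are called other T cells.

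The libraries were 10x Genomics 3′ single-cell RNA libraries of dissociated liver, 1 for each biological replicate in the labels, called a mouse here. In the knockout group, 3 Stingfl/fl Cdh5-Cre+ mice carried floxed Sting alleles and a Cre recombinase driven by the promoter of Cdh5, an endothelial cadherin gene. In the control group, 3 Stingfl/fl Cdh5-Cre- mice carried the same floxed alleles without Cre. Mice of both groups ate chow to an age of 8 weeks, and both were then given western diet with carbon tetrachloride (WD-CCl4) for 12 weeks, which produces metabolic dysfunction-associated steatohepatitis (MASH). No liver without this treatment was compared.

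IL-17-type gamma-delta T cells are innate-like lymphocytes that leave the thymus already set to make IL-17 and settle in barrier tissues and liver. They answer IL-23 and IL-1 through the receptors encoded by Il23r and Il1r1, without need of a fresh antigen response. The constant region of their receptor is encoded by Trdc and the Trgc genes, while conventional T cells use Trac and the Trbc genes. CD4 T cells can also take up an IL-17 programme, so Il17a alone does not mark a lineage.

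Although the cell type label reads liver sinusoidal endothelial cells, the counts held all the T cells described here. The libraries held 55017937 to 73867890 UMIs in 5133 to 9212 barcodes, and the gated cells of a mouse summed to between 702370 and 1422346 UMIs. Sting1, the targeted gene, was counted in 2598 endothelial barcodes, taken as those with at least 5 UMIs over 7 endothelial genes and none of Ptprc, Cd3 or the B cell genes. It stood at 18.5, 15.5 and 20 CPM (UMIs of the gene scaled to a fixed library total) in knockout mice, against 19.1, 23.1 and 21.1 CPM in control mice. The groups overlapped (two-sided exact permutation p = 0.2), and a 3′ tag can lie outside the deleted exons, so this count need not follow the deletion. In the gated cells, over plain UMI totals as well, Sting1 stood at 8.90, 12.8 and 19.8 CPM in knockout mice and 8.44, 10.2 and 5.85 CPM in control mice, on 5 to 14 UMIs a mouse. The log2 fold change in the gated cells was 0.66 (SE 0.450, edgeR adjusted p = 1.00), and 0.34 without knockout 3. Whether the alleles were deleted in T cells was not tested.

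The label was checked first against T cell receptor transcripts. Trdc (chromosome 14, 54142851 to 54148868, plus strand, mm10) was found in 418 of the 890 gated cells, or 47.0% (exact binomial 95% interval 43.7 to 50.3, which covers counting error only). Trac was found in 49.0%, Cd4 in 22.8% and Trbc1 or Trbc2 in 84.0%. The Trbc share says little of lineage, since it reached 89.0% in T cells with at least 2 Trdc UMIs and no Cd163l1 or Il17a UMI. Other T cells held Trdc in 3.49%, Trac in 74.7% and Cd4 in 24.6%, at a median depth of 5560 UMIs against 5571 in the gated cells. Trdc was thus far more frequent than in other T cells, yet it was not detected in over 50% of the gated cells, and the name gamma-delta does not cover them all.

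The amount of Cd163l1 separated the members. Among the 272 members with 5 or more Cd163l1 UMIs, 94.5% held a Trdc UMI and 1.10% a Cd4 UMI. Among the 377 members with none, which entered the gate through Il17a, 13.8% held Trdc, 69.2% Trac and 37.9% Cd4. Members with a single Cd163l1 UMI (118 cells) were near the members with none in these genes, with Trdc in 20.3% and Cd4 in 39.0%. They were lower in Il23r (48.3% against 71.4%) and Il1r1 (57.6% against 69.8%) than the members with none. Median depth was between 5044 and 5972 UMIs in all 4 classes, and no test is given, since cells of 1 mouse are not replicates.

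**Figure D1:**
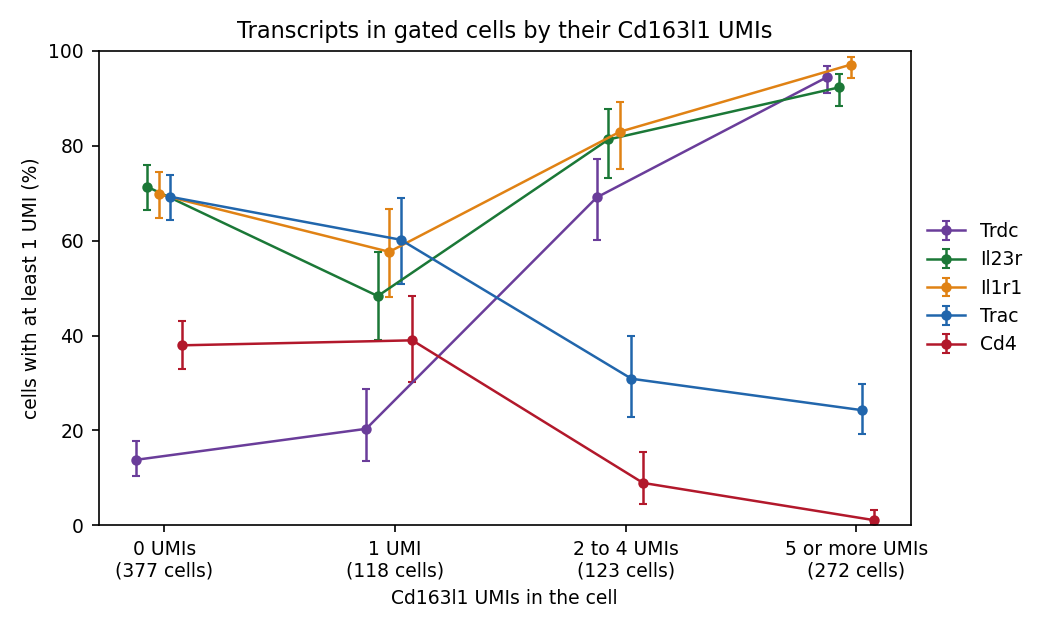
Share of gated cells with at least 1 UMI of 5 genes (vertical axis, percent; bars are exact binomial 95% intervals over cells pooled from 6 mice), by the Cd163l1 UMIs in the cell (horizontal axis). Trdc is found in 13.8% of cells without Cd163l1 and in 94.5% of cells with 5 or more UMIs, while Trac and Cd4 run the other way. Il23r is lowest, at 48.3%, in cells with 1 UMI and is found in 71.4% of cells without Cd163l1.

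Variable segments ran the same way. Trdv4, a delta-chain variable segment, was found in 26.9% of the 513 members with a Cd163l1 UMI and in 0.531% of the 377 members with Il17a alone. Trgv6, a gamma-chain segment, was found in 5.46% and 0.265% of the same sets. Both sets held Il23r, in 79.5% of the Cd163l1 members and 71.4% of the Il17a-only members. The Il17a-only members more often held Il17f (17.5% against 5.07%) and 5830411N06Rik, the gene of the related scavenger receptor SCART2 (32.9% against 12.1%).

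Summed per mouse, the same contrast was present in every animal. Trdc averaged 570 CPM in Cd163l1 members and 55.6 CPM in Il17a-only members and was higher in Cd163l1 members in 6 of 6 mice, and so were Trgc1 (254 and 53.1 CPM) and Sox13 (83.1 and 21 CPM), a transcription factor of gamma-delta T cells. Il17f was lower in Cd163l1 members in 6 of 6 mice (14.6 and 65.3 CPM), as were Trac (134 and 317 CPM), Cd4 (37.2 and 102 CPM), Icos (202 and 434 CPM) and Ctla4 (77.9 and 265 CPM). Il23r averaged 1120 CPM in Cd163l1 members and 852 CPM in Il17a-only members, and was higher in Cd163l1 members in 4 of 6 mice. These values describe sets drawn by a gate gene, and no test is attached to them.

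The gate rests on few molecules in some cells. Cells with exactly 1 UMI of Cd163l1 and Il17a together (182 cells) held Il23r in 50.0% and Trdc in 17%. Cells that met all other limits and held 0 such UMIs, just outside the gate, numbered 9769 and held Il23r in 7.55% and Trdc in 5.0%. Members with 6 or more such UMIs (439 cells) held Il23r in 86.8%. Of the members, 187 held both gate genes, 326 Cd163l1 alone and 377 Il17a alone. The Il17a-only members carried 68.9% of the 4952 Il17a UMIs.

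The gate genes themselves were read as a check. Cd163l1 (chromosome 7, 140218267 to 140231145) averaged 522 CPM in the gated cells and 1.05 CPM in other T cells. Il17a (chromosome 1, 20730905 to 20734496) averaged 831 CPM in the gated cells and 1.34 CPM in other T cells. Both contrasts follow from the rule.

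Genes not named in the rule also set the gated cells apart, and since the gate drew both populations these values are a description. Il23r (chromosome 6, 67422932 to 67491855, minus strand), the receptor subunit specific for IL-23, averaged 988 CPM in the gated cells and 51.8 CPM in other T cells, a log2 difference of 4.37 (SE 0.306), and was higher in 6 of 6 mice. Il1r1, the IL-1 receptor, averaged 1422 CPM and 89.9 CPM (log2 4.03, SE 0.223). Of 14144 genes compared, edgeR called 2335, or 16.5%, at an adjusted p under 0.05, with 1160 higher and 1175 lower in the gated cells. The largest log2 values among well-expressed genes were those of Blk (4.77), a Src-family kinase shared with B cells, Cdh10 (4.56), Ppp1r14c (4.48), Trdc (4.43), Il23r, Adam12 (4.22), Trgc1 (4.1), Il1r1, Ablim3 (3.71) and 5830411N06Rik (3.42). Each was higher in the gated cells in 6 of 6 mice.

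Members of the IL-17 programme were then read by role. Sox13 averaged 54.4 CPM in the gated cells and 3.14 CPM in other T cells. Of the 19 listed IL-17 lineage transcription factors, 10 were higher and 3 lower in 6 of 6 mice, where 8.41% of all genes compared were higher and 11.7% lower. Among 20 cytokine receptors 8 were higher and 4 lower in 6 of 6 mice, the higher ones including Il7r (367 and 155 CPM), Il18r1 (515 and 207 CPM) and Tnfrsf25 (52.5 and 13.5 CPM), the receptor of the TNF-family cytokine TL1A. Among 16 effector cytokines 8 were higher and 4 lower in 6 of 6 mice, with Il17f at 37.5 and 2.28 CPM and Il22 at 16.2 and 0.750 CPM. Of 20 measured genes of the surface and effector state of IL-17 gamma-delta T cells, 17 were higher and 2 lower in 6 of 6 mice, with Tmem176a, a membrane protein gene of IL-17 producers, at 397 and 95.2 CPM.

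Of 21 chemokine receptor and residence genes, 12 were higher and 5 lower in the gated cells in 6 of 6 mice. Cxcr6, which holds lymphocytes in the liver, averaged 261 CPM in the gated cells and 84.5 CPM in other T cells, Ccr2 135 and 49.0 CPM, and Ccr6, the receptor of CCL20, 33.2 and 4.74 CPM. Of 22 type 1 and cytotoxic genes 19 were lower in the gated cells in 6 of 6 mice, beside 11.7% of all genes compared. The rule left out cells with a Cd8 UMI, while other T cells include them. Lower values of cytotoxic genes are thus not independent of the rule. Ccl5 averaged 235 CPM in the gated cells and 3370 CPM in other T cells, and Eomes 3.94 and 64.8 CPM. The genes of largest negative log2 value included Ngp and Camp (both -5.93), S100a9 (-4.62) and Lyz2 (-3.95). These are granule and antimicrobial genes of neutrophils and other myeloid cells. The 10 neutrophil markers summed to between 14.6 and 741 CPM in the gated cells of a mouse and to between 383 and 7110 CPM in its other T cells. The part of such RNA in the contrast was not tested.

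**Figure D2:**
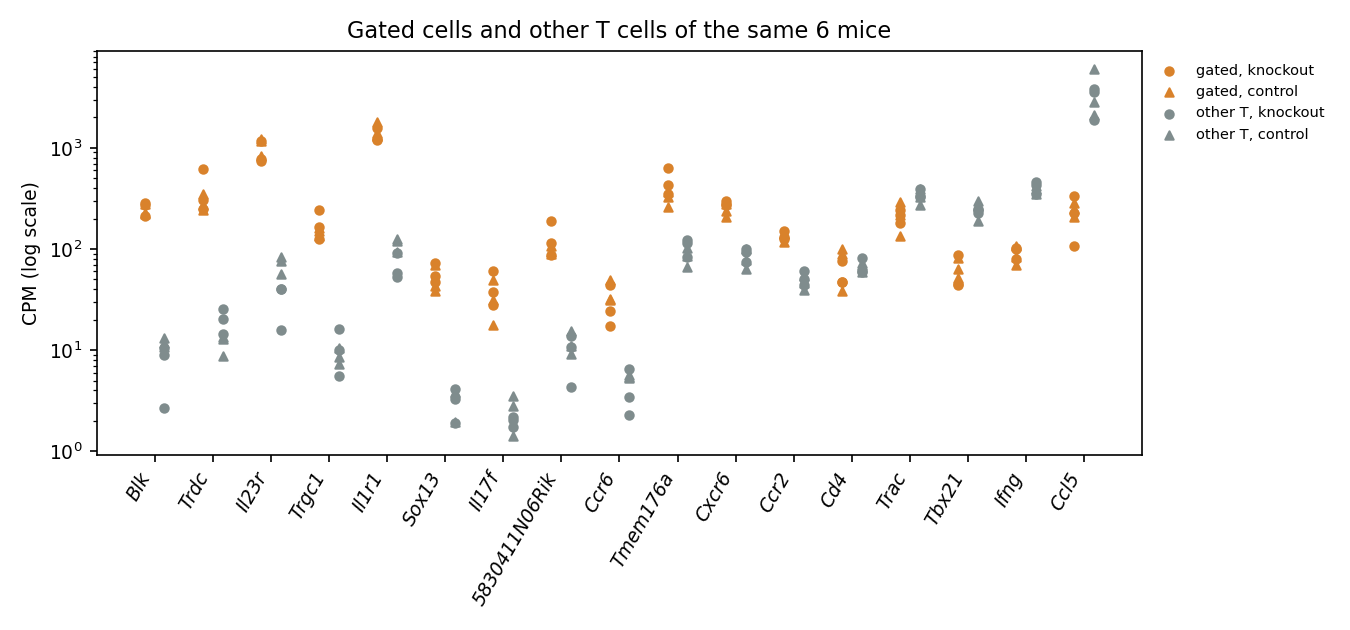
CPM of 17 genes on a log axis in the gated cells (orange) and in other T cells (grey) of the same mice, with circles for knockout and triangles for control. From Blk to Ccr2 every orange point lies above every grey point of that gene, and Tbx21, Ifng and Ccl5 lie lower in the gated cells. The points of Cd4 and of Trac overlap, while Trac is lower in the gated cells within every mouse. Cells with a Cd8 UMI are among other T cells only, by the rule.

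Set against T cells that held at least 2 Trdc UMIs and no Cd163l1 or Il17a UMI, edgeR called 1401 of 8909 genes, or 15.7%. That set was chosen by Trdc and could hold Cd8 or Foxp3 UMIs. The gated side was the full gate, in which many members held no Trdc UMI. The contrast thus mixes receptor lineage with the IL-17 state. The log2 difference of Il23r was 2.11 (SE 0.482) in that comparison. Over the 12 sums, 2 per mouse, the genes whose CPM ranked most like Il23r were Acyp2 (Spearman rho 0.993), Mapk6 (0.986), Aff4, Fam129a and Ifrd1 (0.965 each, a value that Rnf19b and Uhrf2 shared), out of 4943 candidates. The 12 sums share mice in pairs and differ by population, and the rank correlations include that split.

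The share of the gated cells among T cells was compared next, which asks whether the knockout genotype went with fewer of them. They made up 6.47%, 3.44% and 3.67% of T cells in knockout mice, against 5.44%, 6.15% and 7.59% in control mice. The means were 4.52% ± 1.69 and 6.39% ± 1.09 (SD, n = 3 each; two-sided exact permutation p = 0.3, where 0.1 is the smallest p that 3 against 3 mice can give). Knockout 2 and knockout 3 lay under every control mouse, and knockout 1 lay among the control mice. The difference of the means was -1.87 percentage points, and -2.84 without knockout 1. Of all kept barcodes they made up 1.71% ± 0.466 in knockout and 2.38% ± 0.396 in control mice (exact permutation p = 0.2). Members with Cd163l1 made up 2.52% ± 1.21 of T cells in knockout and 3.62% ± 0.690 in control mice (exact permutation p = 0.3), and Il17a-only members 2.01% ± 0.645 and 2.77% ± 1.07 (exact permutation p = 0.5). The make-up of the gate did not separate the groups either: Trdc was found in 48.8% ± 5.74 of members in knockout and 44.1% ± 10.5 in control mice, and Cd4 in 24.8% ± 4.68 and 23.3% ± 12.3 (exact permutation p = 0.6 and p = 1).

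Il23r was read apart from cell frequency, as the gate does not use it. A UMI of Il23r was found in 72.8%, 72.3% and 76.2% of members in knockout mice, against 76.0%, 81.4% and 73.5% in control mice. The groups overlapped (73.8% ± 2.12 and 77.0% ± 4.07, exact permutation p = 0.3). The difference of -3.16 percentage points was -0.929 without control 2 and -4.91 without control 3. In B cells, used as a type that should lack the receptor, 19 of 8559 cells held a UMI, or 0.222%, at a median depth of 5111 UMIs, far below the share in the gated cells. When cells were thinned to 2000 UMIs and gated again, the shares over 100 thinnings averaged 64.4% ± 3.65 in knockout and 67.5% ± 6.43 in control mice (exact permutation p = 0.6). A single thinning gave 55.7% ± 2.15 in knockout and 69.5% ± 10.4 in control mice, without overlap (exact permutation p = 0.1).

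The level of Il23r in the gated cells was 761, 1175 and 761 CPM in knockout mice, against 1216, 1166 and 849 CPM in control mice. Knockout 2 reached the control range, and the groups overlapped. The log2 fold change was -0.26 (SE 0.217, 95% interval -0.74 to 0.21; edgeR adjusted p = 1.00). In Cd163l1 members it was -0.40 (SE 0.212) and in members with Trdc and no Cd4 UMI -0.44 (SE 0.228), with edgeR adjusted p of 0.979 and 0.903. Without knockout 2 it was -0.51 (SE 0.202, 95% interval -0.96 to -0.05, edgeR adjusted p = 0.993). With another mouse left out it lay between -0.40 (without control 3) and -0.15 (without knockout 1).

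Outside the gate the groups were separate. Il23r stood at 15.8, 39.5 and 40.3 CPM in other T cells of knockout mice, against 84.1, 74.0 and 57.4 CPM in control mice. Over all genes of these cells edgeR called 0 between genotypes (2.84% at an unadjusted p under 0.05) and DESeq2 2 (0.0131%), which were not Il23r. Every knockout mouse lay under every control mouse, as 4.45% of the genes tested in these cells did. The log2 fold change was -1.17 (SE 0.354, 95% interval -2.01 to -0.33), which did not pass the edgeR test over 15294 genes (edgeR adjusted p = 1.00). The share of other T cells with an Il23r UMI was 3.84% ± 1.37 in knockout and 7.29% ± 0.695 in control mice, also without overlap (exact permutation p = 0.1, the smallest possible). The summed CPM alone cannot tell fewer Il23r-bearing cells from less Il23r RNA per cell, while the share counts cells with a UMI. Among positive cells outside the gate the mean ran from 5.15 to 6.94 UMIs in knockout and from 6.31 to 7.90 UMIs in control mice.

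The difference between both genotype effects was tested itself. The interaction was 0.98 on the log2 scale (SE 0.351, 95% interval 0.09 to 1.87; edgeR adjusted p = 1.00), which did not pass adjustment. With 1 mouse left out it lay between 0.64 (without knockout 1) and 1.30, with edgeR adjusted p between 0.167 and 1. The log2 ratio of Il23r in gated over other T cells was 5.59, 4.90 and 4.24 in knockout mice, against 3.85, 3.98 and 3.89 in control mice. These did not overlap (exact permutation p = 0.1, the smallest possible). The gated cells held 841 of 1119, 845 of 1611 and 553 of 1344 T cell Il23r UMIs in knockout mice, against 1661 of 3667, 1522 of 3055 and 712 of 1315 in control mice, and over all mice 50.6%.

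**Figure D3:**
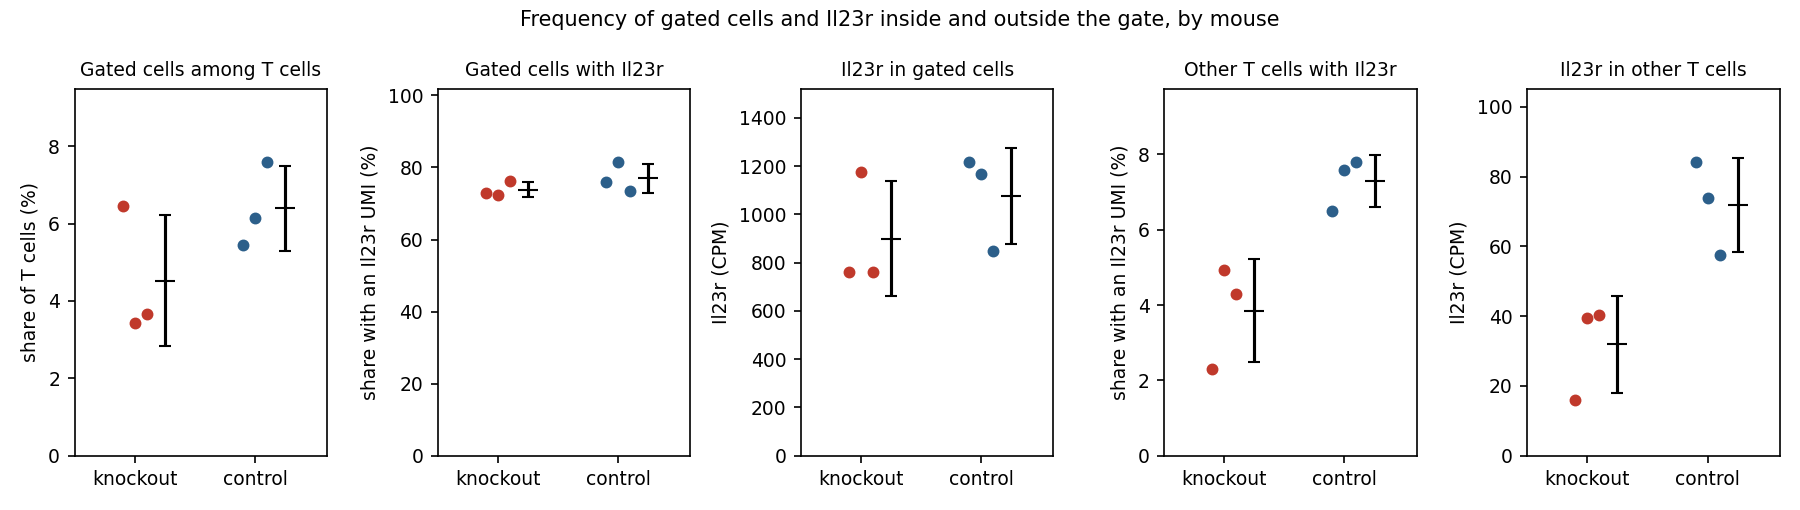
Values per mouse (points) with mean and SD (black), knockout left and control right, for the share of gated cells among T cells, the share of gated cells and of other T cells with an Il23r UMI (percent), and Il23r in both populations (CPM). Knockout and control overlap in the 3 panels on the gated cells and are separate in the 2 panels on other T cells.

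Of the T cells with an Il23r UMI, the gate took 68.6%, 34.3% and 40.3% in knockout mice, against 40.2%, 41.3% and 43.6% in control mice (exact permutation p = 0.9). The mean was 6.03 percentage points higher in knockout mice with knockout 1 and 4.40 points lower without it. Of the 888 Il23r-bearing T cells outside the gate, 863 held no Cd163l1 or Il17a UMI. Among those 863, 188 held Cd4, 57 Foxp3 and 71 a Cd8 gene. Trdc was found among the 888 too, in more cells than held Foxp3 or a Cd8 gene among the 863. A cell of the gated type in which no Cd163l1 or Il17a UMI was counted falls among other T cells by the rule. The part of such cells in the Il23r values outside the gate, and in the interaction, was not tested.

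Knockout and control were then compared across all genes in the gated cells. Of 8652 genes tested, edgeR called 0 (0%) at an adjusted p under 0.05. At an unadjusted p under 0.05 there were 339, or 3.92%, of which 146 (1.69%) were higher and 193 (2.23%) lower in knockout mice. DESeq2 called 2 (0.0231%), Cxcl2 and Hspa1b, both lower. The genotype groups did not overlap in 863 genes, or 9.97% (5.27% lower and 4.7% higher in knockout mice), and the median log2 fold change over all genes was 0.01. In simulated data of this size edgeR recovered 92% of genes moved by a log2 fold change of 2 and 22% of those moved by 1. The moved genes were drawn above a count limit, and all genes were given a common dispersion of 0.0583. The recovered shares do not cover low-count or more variable genes. Changes of 2-fold would thus often be missed here.

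None of the genes named below passed the edgeR test, and their values are given as measured. That outcome depends on the filter on low counts: without it, over 18214 genes, edgeR called 26, 13 in each direction. These included Gbe1 (edgeR adjusted p = 0.000396), Cxcl2 and Hspa1b (0.00637 each), Rhbdd2 (0.00792), Cxcl10 (0.0145), Nr3c2 (0.0179) and Prickle1 (0.0289), with log2 fold changes within 0.02 of those given here. The genes listed passed the filter as well, so their counts were the same and only the fit with the added low-count genes differed. Calls without the filter are given as an alternative and are not taken as results. Gbe1 (chromosome 16, 70313949 to 70569716), the glycogen branching enzyme, had the smallest p. It stood at 47.0, 37.5 and 38.5 CPM in knockout mice, against 116, 103 and 79.9 CPM in control mice (log2 fold change -1.27, SE 0.212, edgeR adjusted p = 0.668). All knockout values lay under all control values. In other T cells its log2 fold change was -0.04 (SE 0.118), and the interaction was -1.23 (SE 0.200, edgeR adjusted p = 0.294). Over all genes of that interaction edgeR called 0 of 14144 (0%), with 3.12% at an unadjusted p under 0.05, and DESeq2 called 1 (0.00707%), which was Gbe1.

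Chemokine genes were next. Cxcl10, the interferon-induced ligand of CXCR3, stood at 130, 107 and 105 CPM in knockout mice, against 200, 221 and 206 CPM in control mice (log2 -0.87, SE 0.154, edgeR adjusted p = 0.668). Cxcl2 (chromosome 5, 90903871 to 90905938), a neutrophil-attracting chemokine, stood at 233, 299 and 240 CPM in knockout mice, against 382, 510 and 557 CPM in control mice (log2 -0.91, SE 0.182, edgeR adjusted p = 1.00). The DESeq2 adjusted p of Cxcl2 was 0.0373. Both were separate between the groups. In other T cells Cxcl10 had a log2 fold change of -0.95 (SE 0.281) and Cxcl2 one of -0.05 (SE 0.725).

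The remaining genes of smallest p were Rdm1, which encodes a protein related to the repair factor RAD52 (log2 -1.02, SE 0.231), and Dhx40, an RNA helicase gene (-0.70, SE 0.160), at the low side. At the high side were Nr3c2, the mineralocorticoid receptor (1.2, SE 0.264), Prickle1, a planar polarity gene (0.93, SE 0.213), Thrb, a thyroid hormone receptor (1.39, SE 0.332), Smim20 (1.16, SE 0.301) and Rhbdd2 (1.74, SE 0.473). Nr3c2 stood at 54.3, 52.8 and 85.4 CPM in knockout mice, against 22.7, 32.2 and 28.6 CPM in control mice. Prickle1 stood at 126, 118 and 96.4 CPM in knockout mice, against 46.1, 59.0 and 75.1 CPM in control mice. Their edgeR adjusted p values were all 1.00. None of the 7 overlapped between groups, which follows in part from their choice by smallest p in this contrast. Of all tested genes 9.97% did not overlap.

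**Figure D4:**
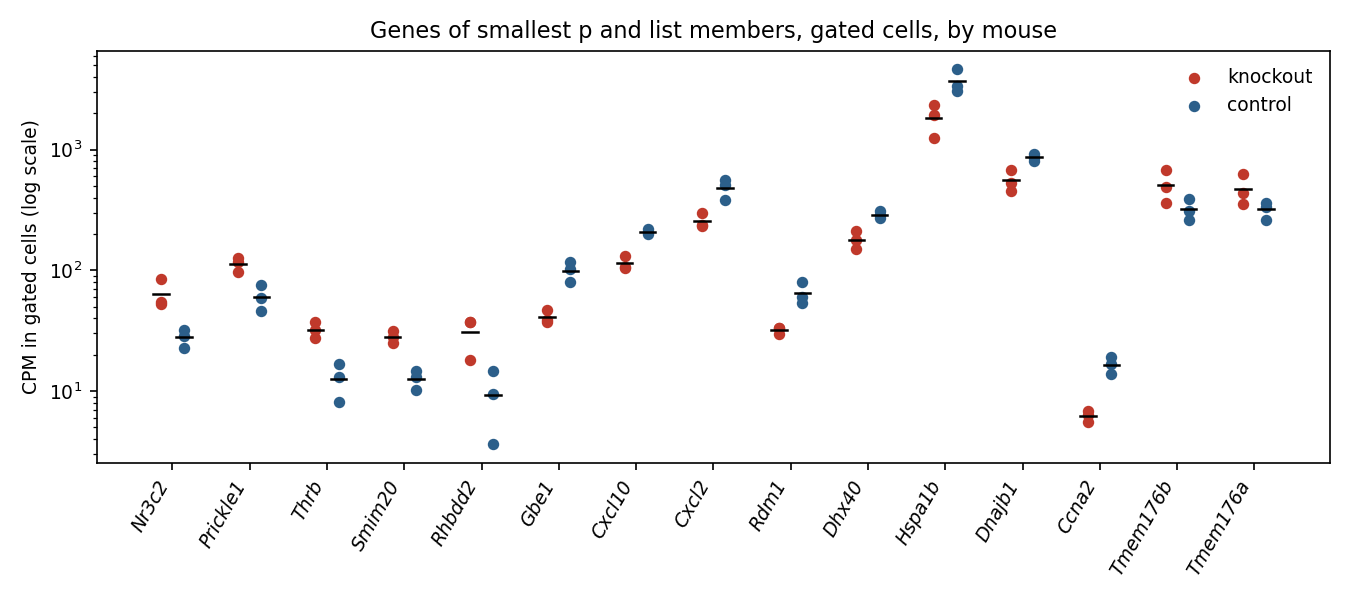
CPM per mouse in the gated cells on a log axis, knockout (red) left of control (blue) with the group mean as a bar. Shown are the 5 genes of smallest p in each direction (mean log2 CPM of at least 4) and 5 list members. Nr3c2 to Rhbdd2 are higher and Gbe1 to Ccna2 lower in knockout mice without overlap, while Tmem176b and Tmem176a overlap. For genes chosen by smallest p this follows in part from the choice, and 9.97% of all tested genes do not overlap.

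Gene lists were read by counts and medians, beside 47.9% of all tested genes with a negative log2 fold change. In the list counts a lower or higher mean stands for the sign of the edgeR log2 fold change. Of 28 immediate early and heat shock genes 26 passed the low-count filter, 22 of them with a lower mean in knockout mice (median log2 -0.24), 9 did not overlap and 0 passed the edgeR test (8 had an unadjusted p under 0.05, all lower). Non-overlap with lower knockout values held for 5.27% of all tested genes, and an unadjusted p under 0.05 with a lower value for 2.23%. Hspa1b (chromosome 17, 34956436 to 34959238), an inducible HSP70 gene, stood at 1922, 2339 and 1238 CPM in knockout mice, against 3079, 4607 and 3347 CPM in control mice (log2 -1.0, SE 0.253, edgeR adjusted p = 1.00, DESeq2 adjusted p = 0.0373). Its near-identical copy Hspa1a, with which it can share reads, had a log2 fold change of -0.72 (SE 0.232). The cochaperone gene Dnajb1 stood at 684, 452 and 531 CPM in knockout mice, against 808, 923 and 860 CPM in control mice (log2 -0.63, SE 0.180, edgeR adjusted p = 1.00). The mitochondrial chaperonin genes Hspe1 and Hspd1 had log2 fold changes of -0.42 (SE 0.145) and -0.48 (SE 0.179).

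Outside the gate 24 of 28 tested members had a lower mean in knockout mice (median -0.22, beside 50.1% of all genes tested there). Hspa1b had a log2 fold change of -0.78 (SE 0.197) in other T cells, and its interaction was -0.25 (SE 0.207, edgeR adjusted p = 1.00). The summed level of the list ran from 32176 to 35736 CPM in the gated cells of knockout mice and from 38678 to 45102 CPM in those of control mice. Of 16 NF-kB genes and inhibitors 14 had a lower mean in knockout gated cells (median -0.22), 2 lay wholly under and 1 wholly over the control values, and 0 passed. Of all tested genes 5.27% lay wholly under and 4.7% wholly over. Nfkbie, an inhibitor of NF-kB, had a log2 fold change of -0.52 (SE 0.211). Outside the gate 15 of 16 were lower (median -0.10).

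Of 18 cell cycle genes tested in the gated cells 14 had a lower mean in knockout mice (median -0.40), 6 lay wholly under and 1 wholly over the control values, and 0 passed the edgeR test. The same held for 5.27% and 4.7% of all tested genes. In other T cells 9 of 20 had a lower mean (median 0.05). Ccna2, cyclin A2, stood at 6.33, 5.56 and 6.88 CPM in knockout mice, against 16.8, 13.8 and 19.1 CPM in control mice (log2 -1.37, SE 0.400, edgeR adjusted p = 1.00), and its interaction was -1.64 (SE 0.468, edgeR adjusted p = 1.00). Top2a had a log2 fold change of -0.47 (SE 0.211) and Hmgb2 of -0.39 (SE 0.161). The share of members with a Mki67 or Top2a UMI was 16% ± 1.95 in knockout and 16.8% ± 0.582 in control mice (exact permutation p = 0.6), which does not follow these sums.

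Of 19 tested genes that mark the IL-17 gamma-delta state 16 had a higher mean in knockout mice (median log2 0.29), 3 lay wholly over the control values and 0 passed the edgeR test (3 had an unadjusted p under 0.05, all higher). Of all tested genes 4.7% lay wholly over the control values, and 1.69% were higher at an unadjusted p under 0.05. Tmem176b stood at 682, 360 and 493 CPM in knockout mice, against 310, 264 and 388 CPM in control mice (log2 0.68, SE 0.239), and Tmem176a had a log2 fold change of 0.58 (SE 0.219). Both overlapped between groups, and without knockout 1 they were 0.42 and 0.32. Serpinb1a, a protease inhibitor gene of IL-17 producers, stood at 72.4, 66.8 and 74.3 CPM in knockout mice, against 53.4, 46.0 and 58.4 CPM in control mice (log2 0.44, SE 0.191). In other T cells 11 of 20 listed genes had a lower mean (median -0.03). Trdc itself stood at 610, 249 and 313 CPM in knockout mice, against 242, 349 and 280 CPM in control mice (log2 0.44, SE 0.350), and was -0.04 without knockout 1. Trgc2 was separate between groups at 33.5, 32.0 and 30.3 CPM in knockout mice, against 19.0, 26.8 and 19.1 CPM in control mice (log2 0.55, SE 0.268).

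**Figure D5:**
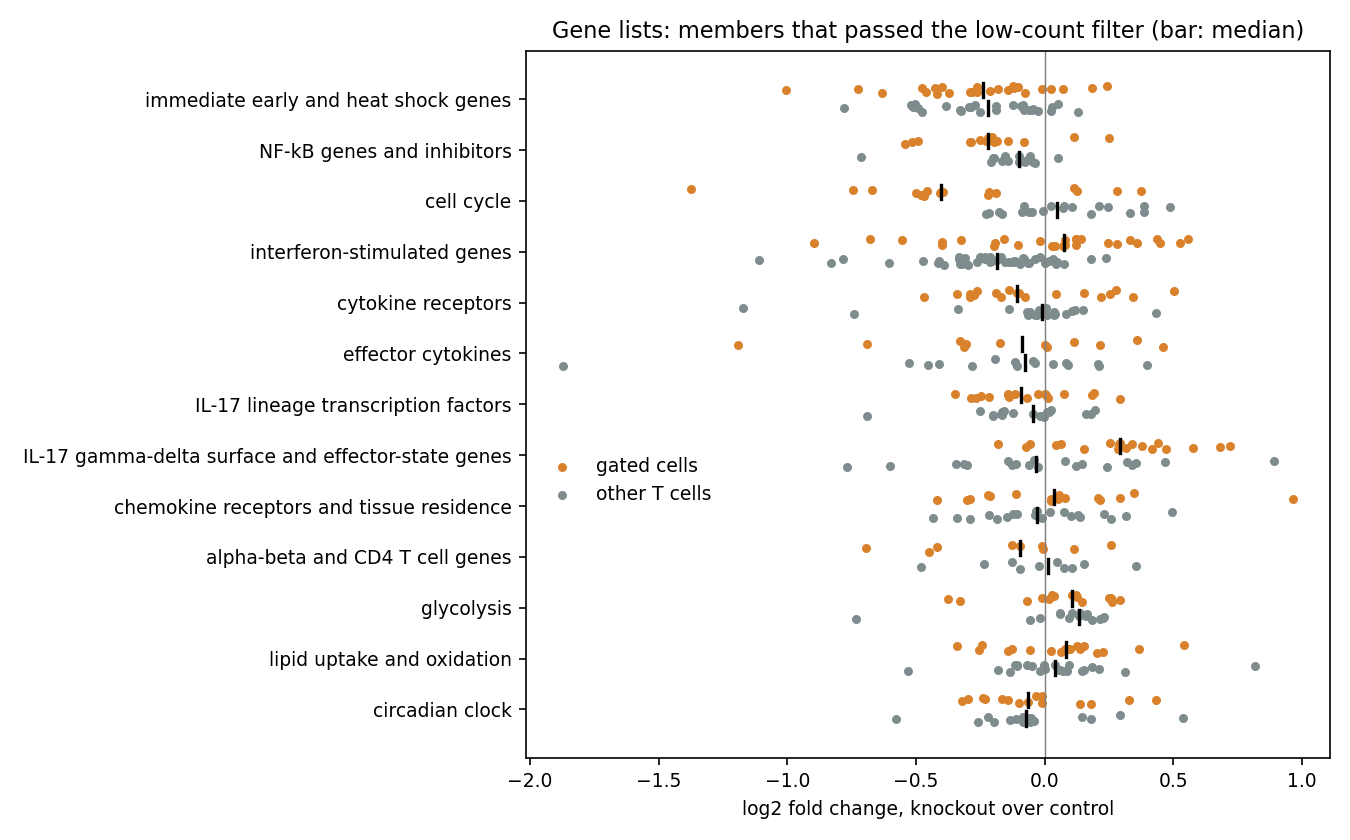
Log2 fold change of knockout over control (horizontal axis) for list members that passed the low-count filter, in gated cells (orange) and other T cells (grey), with the median as a bar. The heat shock and NF-kB lists have medians left of 0 in both populations, the cell cycle list has a median of -0.40 in the gated cells and 0.05 in other T cells, and the IL-17 gamma-delta surface list has a median of 0.29 in the gated cells.

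The receptor, cytokine, transcription factor, homing and interferon lists had medians between -0.11 and 0.08. Of 19 tested cytokine receptors 12 had a lower mean in knockout mice (median -0.11), and 0 passed. Il1r1 had a log2 fold change of -0.17 (SE 0.188), between -0.29 (without knockout 1) and -0.02 (without control 2) with 1 mouse left out. Il7r, the IL-7 receptor, had one of -0.27 (SE 0.140), while Tnfrsf25 stood at 49.7, 75.1 and 60.6 CPM in knockout mice, against 43.9, 42.9 and 42.9 CPM in control mice (log2 0.50, SE 0.217, edgeR adjusted p = 1.00). Effector cytokines were split 6 and 6 (median -0.09), and the lineage transcription factors had 11 of 18 lower (median -0.09), with Ahr, the aryl hydrocarbon receptor, at 0.29 (SE 0.165). Among 16 homing and residence genes 10 had a higher mean (median 0.04), with Itga1 at 0.97 (SE 0.401, 0.59 without control 1) and Itgb7 at 0.35 (SE 0.163, 0.21 without control 2), and with the activation genes Cd69 at -0.29 (SE 0.145) and Rgs1 at -0.22 (SE 0.145). Of 28 tested interferon-stimulated genes 17 had a higher mean in the gated cells (median 0.08), with Gbp4 at -0.68 (SE 0.264) and Ifi203 at -0.40 (SE 0.161). Outside the gate 37 of 45 of that list had a lower mean (median -0.18).

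Metabolic lists were similar, with 12 of 18 lipid genes (median 0.08) and 11 of 15 glycolysis genes (median 0.11) at a higher mean in knockout mice. Pfkp, a phosphofructokinase gene, stood at 499, 533 and 571 CPM in knockout mice, against 739, 627 and 649 CPM in control mice (log2 -0.33, SE 0.151). Slamf6, listed with NKT and MAIT markers, had a log2 fold change of -1.05 (SE 0.377). In all of these lists 0 genes passed the edgeR test.

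RNA of other liver cells was present in the gated sums and varied between mice. The 12 cholangiocyte and mesothelial markers summed to 617 to 2001 CPM in knockout mice and 27.1 to 2690 CPM in control mice, and 11 of 12 had a higher mean in knockout mice (median log2 0.43). The 10 hepatocyte markers summed to 132 to 665 CPM in knockout and 8.05 to 363 CPM in control mice. The 14 monocyte and macrophage markers, with Clec4f and Marco at 0, summed to 197 to 324 CPM in knockout and 169 to 244 CPM in control mice. The 12 endothelial markers summed to 324 to 1077 CPM in knockout and 533 to 1001 CPM in control mice. The 12 stellate, fibroblast and mural markers, with Lrat at 0, summed to 300.4 to 1152 CPM in knockout and 324 to 604 CPM in control mice. The values overlapped in each of these lists. The 13 dendritic cell markers, with Cd209a at 0, summed to 183 to 779 CPM in knockout and 114.9 to 649.9 CPM in control mice. The 10 NK and ILC1 markers summed to 61.2 to 117 CPM in knockout and 46.1 to 139 CPM in control mice, and the 10 neutrophil markers to 36.2 to 741 CPM in knockout and 14.6 to 216 CPM in control mice. The 14 B and plasma cell markers, with Mzb1 at 0, summed to 84.8 to 107 CPM in knockout and 53.7 to 222 CPM in control mice. Scrublet called 10 of the 890 members as doublets. The part of this RNA in the comparisons above was not tested.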

How the data were processed

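The deposited matrices hold raw UMI counts per gene and barcode. Cell Ranger 7.1.0 made them, per the file headers and the submitters' processing notes, which also name Seurat 4.1.1 and mm10. The annotation release is not given in the sources used here, so coordinates were looked up by Ensembl ID in GENCODE M21 (GRCm38).

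A barcode was kept if it had 300 or more genes and no more than 20% of its UMIs in mitochondrial genes. Scrublet (expected rate 0.06, a common score threshold of 0.267) marked doublets, which stayed in except in 1 alternative. Pairs of libraries shared 0.0974% to 0.328% of barcodes.

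Counts were summed per mouse and population and tested with edgeR 4.0.16 (TMM, filterByExpr, robust quasi-likelihood F-test, Benjamini-Hochberg adjustment over all genes, threshold 0.05); DESeq2 1.42.0 was an alternative. The 10 gate genes stayed out of the tests. Gated and other T cells of a mouse were fitted with the mouse as a block. CPM were scaled to TMM library sizes within each population, except those of Sting1, which are over plain UMI totals. Nothing ties same-numbered mice, and same-number correlations of deviations were not over 0.1 in every pair (-0.0001, 0.0864 and -0.136 in gated cells, and 0.0552, -0.0229 and 0.242 in other T cells), so the numbers were not taken to pair. The labels call the mice biological replicates.

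On simulated counts, edgeR made 4 false calls among 8314 genes in the gated cells and recovered 97% of genes moved by a log2 fold change of 2 in other T cells, 95% between gated and other T cells, and 63% for the interaction. In each comparison the moved genes were drawn above a count limit, and all genes had a common dispersion.

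Members, lists and tests were chosen with earlier results of these data known. The rule for named genes took the 5 markers and gate genes, up to 5 genes each way by smallest p (mean log2 CPM of at least 4), per list up to 4 members of highest CPM and 2 of smallest p, the 10 genes of largest and of smallest log2 value against other T cells (mean log2 CPM of at least 5), and the 5 most like Il23r; other genes were named after their values were seen. Some results are not reported here.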

Additional observations from a re-analysis of the deposited data

How the results depend on the processing

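Of the alternative values for the main results, 126 kept the direction and side of the threshold of the shares and Il23r, or gave a count of called genes within 1.5 times that reported. Those of a stricter cell filter and doublet removal were among these. Of the rest, 11 fell outside these limits and 1 reversed direction. The count of genes called between genotypes in the gated cells was 0 with edgeR, 2 with DESeq2, 26 without a low-count filter (13 higher, 13 lower), and 0 to 1 when 1 mouse was left out (Saa3, without control 2). Among the Il17a-only members, a set chosen after seeing the data, edgeR called 5 of 6012 genes (0.0832%), all higher in knockout mice: Gpc3, Saa3, Rnase4, Lgals2 and Upk1b. In control mice of that set Saa3 stood at 0, 0 and 0 CPM and Lgals2 at 0, 0 and 6.40 CPM. Saa3, Lgals2 and Upk1b thus passed the low-count filter through the knockout mice, and for them a call could only be higher. Upk1b, a uroplakin gene of mesothelium, stood there at 60.4, 46.7 and 44.3 CPM in knockout mice, against 0, 0 and 4.27 CPM in control mice, while the cholangiocyte and mesothelial markers summed to 2353, 456 and 855 CPM in knockout mice, against 42.3, 996 and 4710 CPM in control mice. In other T cells edgeR called 0 genes between genotypes (435 at an unadjusted p under 0.05), DESeq2 2 and edgeR without filter 1. Genotype effects that differed between gated and other T cells numbered 0 with edgeR (441 at an unadjusted p under 0.05), 1 with DESeq2 and 1 without filter (Gbe1 in both), and 0 to 1 with a mouse left out (S100a9 without knockout 2, Ccl21a without control 3). Between gated and other T cells 2335 genes were called (1160 higher), 2319 with RLE scaling (1264 higher), 2313 with DESeq2 (1300 higher), 2397 without filter (1039 higher) and 1897 to 2128 with a mouse left out. Against Trdc cells outside the gate 1401 were called, with no mouse left out there. The share of Il23r-bearing T cells that the gate took differed by -4.40 percentage points without knockout 1 and by up to 12.7 points otherwise. Of 520 values for 34 named genes, 515 kept their sign and 13, in 9 genes, passed the threshold; Trdc turned to -0.04 without knockout 1 (up to 0.68 with another mouse left out), Hmgb2 to 0.16 in members with Trdc and no Cd4, and among Il17a-only members Il1r1 turned to 0.23, Prickle1 to -0.03 and Cd69 to 0.01. The cause was not tested.

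With the replicate number as a block, Il23r in the gated cells was -0.28 (SE 0.164), the gated share of T cells differed by -1.87 percentage points and the Il23r share by -3.16 (exact sign-flip p = 0.5 each, where 0.25 is the smallest possible); the block changed no call. A single thinning to 2000 UMIs gave Il23r shares of 57.0%, 56.9% and 53.2% in knockout mice, against 62.5%, 81.5% and 64.5% in control mice, without overlap (exact permutation p = 0.1), while the average of 100 thinnings, added after that result was seen, overlapped. The single draw lay outside the range of the 100 in knockout 2 (58.3% to 79.0%) and control 2 (68.9% to 80.6%). The gated cells of a mouse number 94 to 225, which limits what low-count genes can show.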
